A study of Mus musculus with 2 samples.

Results

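The genes described here are 41 mouse genes of the interferon response, from the receptors and the STAT and IRF transcription factors to the sensors of viral RNA and the antiviral effectors. A gene was taken as measured where a probe set of the array carried its symbol and no other, which held for 38 of the 41, out of 19938 genes named in this way. Isg15 and Gbp2 shared their probe sets with a second symbol, and no probe set was listed under Ifi44. The list follows their known function, but it was drawn up with earlier results of these data known.

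RNA came from primary myoblasts, the proliferating progeny of the stem cells of skeletal muscle, isolated from hind limbs of young mice with both Mll1 alleles floxed (fl/fl) and the Rosa-CreER allele. Rosa-CreER expresses, in all cell types, a Cre recombinase that enters the nucleus when 4-hydroxytamoxifen (4-OHT) is present. The Control culture received 0.01% ethanol for 7 days, and the MLL1 KO culture, called Mll1 cKO below, received 500 nM 4-OHT in 0.01% ethanol for 7 days. The labels give a further 3 days without either agent, whereas the methods give 2. The medium of each culture held 5 ng/ml of basic FGF and 20% fetal bovine serum. Both arms carried the floxed alleles and the Cre, and both came from the same cell line, so that deletion of Mll1 and exposure to 4-OHT cannot be told apart here.

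The values are log2 signals after RMA normalization, from 1 Affymetrix MoGene 1.0 ST array of each culture. Where a pair of signals is given, the control comes first and Mll1 cKO second. Differences are Mll1 cKO minus control on the log2 scale, and folds are the same differences on the linear scale. A single array of each kind gives no spread between cultures, no standard error and no test, and this number limits the precision. Different probe sets bind with different strength, so signals are compared between arrays and not between genes. Kmt2a, which encodes MLL1, had log2 signals of 9.44 (control) and 9.66 (Mll1 cKO). This value is a summary over the whole transcript and does not by itself check the deletion. The paper plots array values along the Mll1 transcript with the floxed exons marked. It also reports checks of the deletion by RT-qPCR and of the loss of MLL1 at the protein level. Of 10 myoblast markers, 9 had signals over 6 in both arrays, with Myod1 at 12.15 and 12.27 and Des at 11.58 and 11.49. The exception was Chodl, and Myf5 differed most, with 9.51 and 6.14.

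Interferons are secreted proteins that cells release on sensing viral nucleic acid. Type I interferons bind the IFNAR receptor and interferon gamma binds the IFNGR receptor, and through Janus kinases both activate STAT proteins. A complex of STAT proteins with IRF9 binds the interferon-stimulated response element (ISRE), whereas STAT dimers bind the gamma-activated sequence (GAS), and the genes so induced encode sensors, antiviral enzymes and the machinery of antigen presentation. Most of them are transcribed at a low rate in cells that have met no interferon.

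Of the 38 measured members, 1 had a signal more than 2-fold higher in Mll1 cKO myoblasts and none had one more than 2-fold lower. The shares among all 19938 named genes were 1.22% higher and 0.11% lower by this size. The member past the cut-off was Lgals3bp, which encodes a secreted glycoprotein that binds galectins. Without regard to size, 21 members were higher, 16 were lower and 1 was equal in both arrays. That is 55.3% of members higher and 42.1% lower, against 41.6% and 55.6% of all genes. With the trend of the difference on signal removed, the split became 65.8% of members against 50.7% of all genes. The median difference of the members was 0.057 on the log2 scale, and that of all genes was -0.049. In all, 36 of the 38 members lay inside the range of -0.56 to 0.78 that held the central 95% of all genes, and the others were Lgals3bp and Ifit3. In the RNA of a whole culture, fewer cells that express a gene and less of its RNA per cell cannot be told apart.

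**Figure D1:**
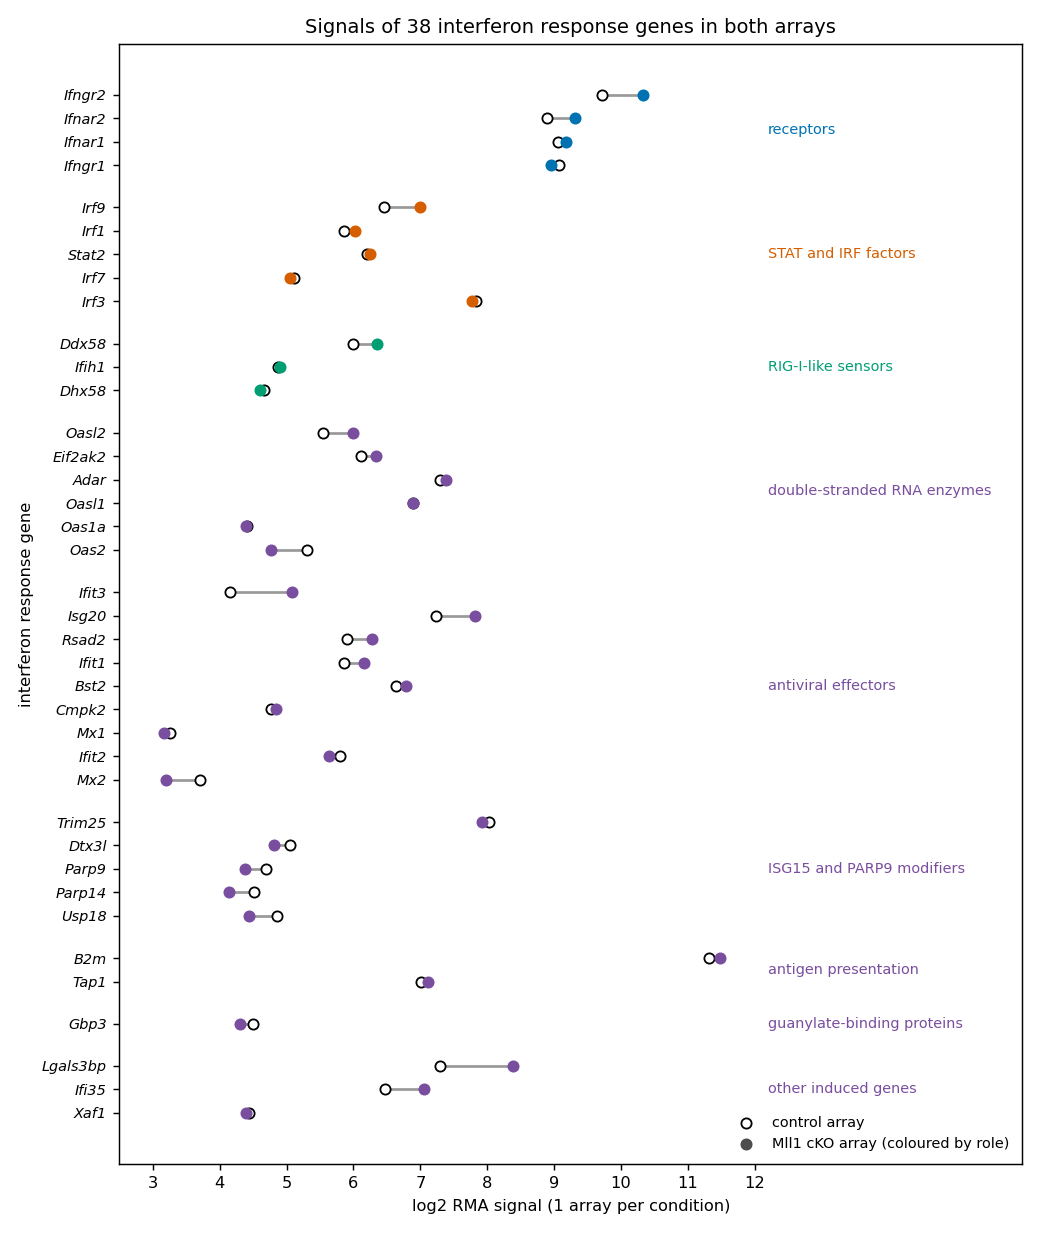
Log2 RMA signal of each of the 38 measured members in the control array (open circles) and the Mll1 cKO array (filled circles, coloured by role), 1 array per condition. Most pairs lie close together, and the longest lines are those of Lgals3bp, from 7.29 to 8.39, and Ifit3, from 4.16 to 5.09.

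The sign of the differences went with the signal, in the members as in all genes. Below a mean log2 signal of 5 lay 13 members, of which 3 were higher and 10 were lower, or 23.1% higher against 21.5% of all genes in that range. From 5 to 7, 10 of 14 members were higher, which is 71.4% against 41.9% of all genes. From 7 to 9 it was 4 of 6 members, at 66.7% against 60.7%, and from 9 upwards 4 of 5, at 80.0% against 55.5%. The dim members thus had the share of lower values that dim genes had in general.

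**Figure D2:**
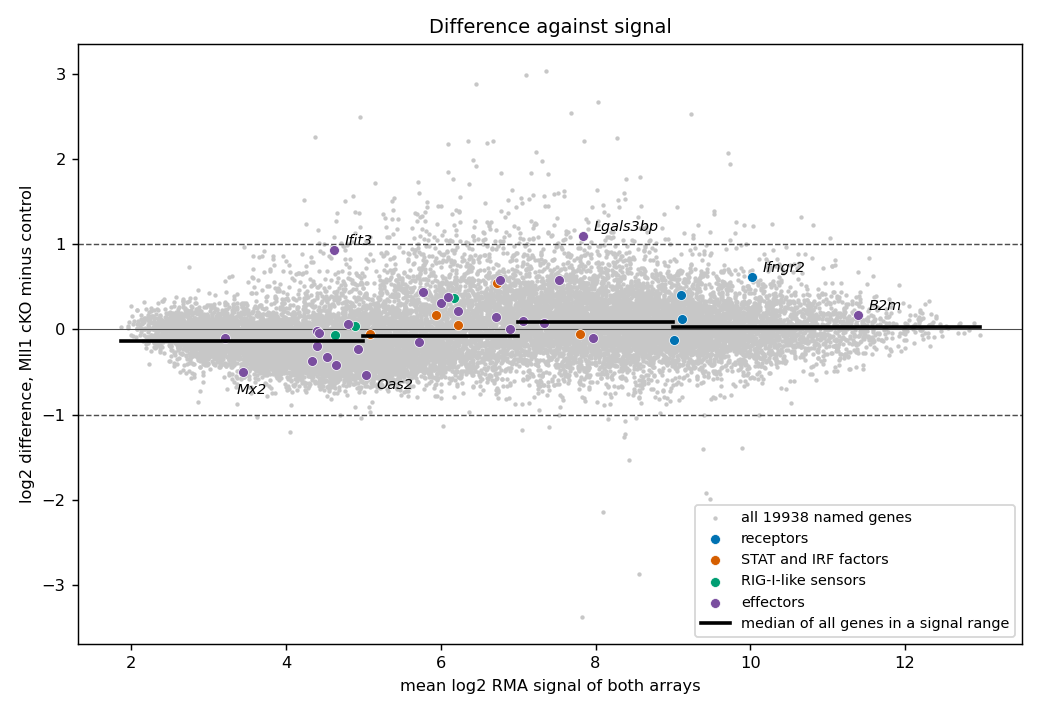
Log2 difference (Mll1 cKO minus control) against the mean log2 RMA signal of both arrays, for all 19938 named genes (grey) and the 38 members (coloured by role), with dashed lines at 2-fold. Black bars are the medians of all genes below 5, from 5 to 7, from 7 to 9 and above 9, which run from -0.14 to 0.08, and Lgals3bp is the 1 member above the upper dashed line.

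To show the sequences through which these genes are induced, RefSeq promoters of the GRCm38.p6 build were matched by symbol, from 250 bases before to 50 bases after the start of the gene. Of the 41 members, 34 had such a promoter. The ISRE core, which is TTTC, any 2 bases and TTTC again, on either strand, lay in the promoters of 13 of them, or 38.2%, whereas 3.99% of all 27025 genes with a promoter had one. The GAS core TTCNNNGAA, which reads the same on both strands, lay in those of 10 members, or 29.4%, against 9.55% of all genes. In Bst2, which encodes tetherin, a membrane protein that holds budding virus particles on the cell, a GAS core from -136 to -128 overlaps the first of 2 ISRE cores. A match is a description of the letters and not a site of binding.

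The 160 bases before the start are printed here for 6 members, 5′ to 3′ on the strand of the gene, with ISRE cores in capitals. Ifit3 (chr19:34583369-34583528, plus strand) and Ifit1 (chr19:34640729-34640888, plus strand) each have a pair of cores, and Rsad2 (chr12:26456453-26456612, minus strand) has 1. B2m (chr2:122147527-122147686, plus strand) has a single core that reads on the opposite strand, and in Gbp3 (chr3:142559884-142560043, plus strand) a pair overlaps. Lgals3bp (chr11:118401960-118402119, minus strand), the member with the largest difference, has none in this window.
Ifit3: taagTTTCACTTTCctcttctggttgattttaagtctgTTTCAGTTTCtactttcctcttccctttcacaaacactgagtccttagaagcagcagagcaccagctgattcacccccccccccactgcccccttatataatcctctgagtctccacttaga
Ifit1: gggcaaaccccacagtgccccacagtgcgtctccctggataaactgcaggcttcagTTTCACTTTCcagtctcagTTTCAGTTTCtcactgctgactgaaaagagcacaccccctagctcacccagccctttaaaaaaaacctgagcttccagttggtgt
Rsad2: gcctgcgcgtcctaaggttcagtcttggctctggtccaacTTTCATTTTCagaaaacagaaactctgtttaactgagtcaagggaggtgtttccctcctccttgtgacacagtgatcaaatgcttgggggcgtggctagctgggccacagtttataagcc
B2m: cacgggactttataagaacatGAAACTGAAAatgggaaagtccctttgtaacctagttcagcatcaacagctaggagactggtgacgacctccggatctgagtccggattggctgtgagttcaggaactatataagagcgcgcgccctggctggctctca
Gbp3: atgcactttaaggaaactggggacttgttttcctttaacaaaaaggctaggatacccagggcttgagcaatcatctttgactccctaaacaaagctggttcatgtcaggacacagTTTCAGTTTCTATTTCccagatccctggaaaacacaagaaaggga
Lgals3bp: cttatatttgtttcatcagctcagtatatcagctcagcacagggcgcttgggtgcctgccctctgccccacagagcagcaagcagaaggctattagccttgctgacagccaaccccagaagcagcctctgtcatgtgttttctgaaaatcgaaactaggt

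Of the 11 measured members with an ISRE core, 9 were higher and 2 were lower in the Mll1 cKO array. Of the 20 measured members whose promoter lacks it, 12 were higher, 7 were lower and 1 was equal. Among all 38 members 55.3% were higher, and among all genes 41.6%. The median control signal was 5.90 with the core and 6.95 without it, and the split was not repeated with the trend on signal removed. The median log2 difference was 0.17 with the core and 0.087 without it. The ranges overlapped, from -0.19 to 0.93 with the core and from -0.23 to 1.09 without. The other 7 measured members, Oas2, Mx2, Usp18, Parp14, Parp9, Mx1 and Dhx58, had no promoter to read and stand in neither group. All 7 were lower, with a median of -0.37, and they include the 5 lowest differences of all members, so the medians of both groups lie above that of all 38 members.

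**Figure D3:**
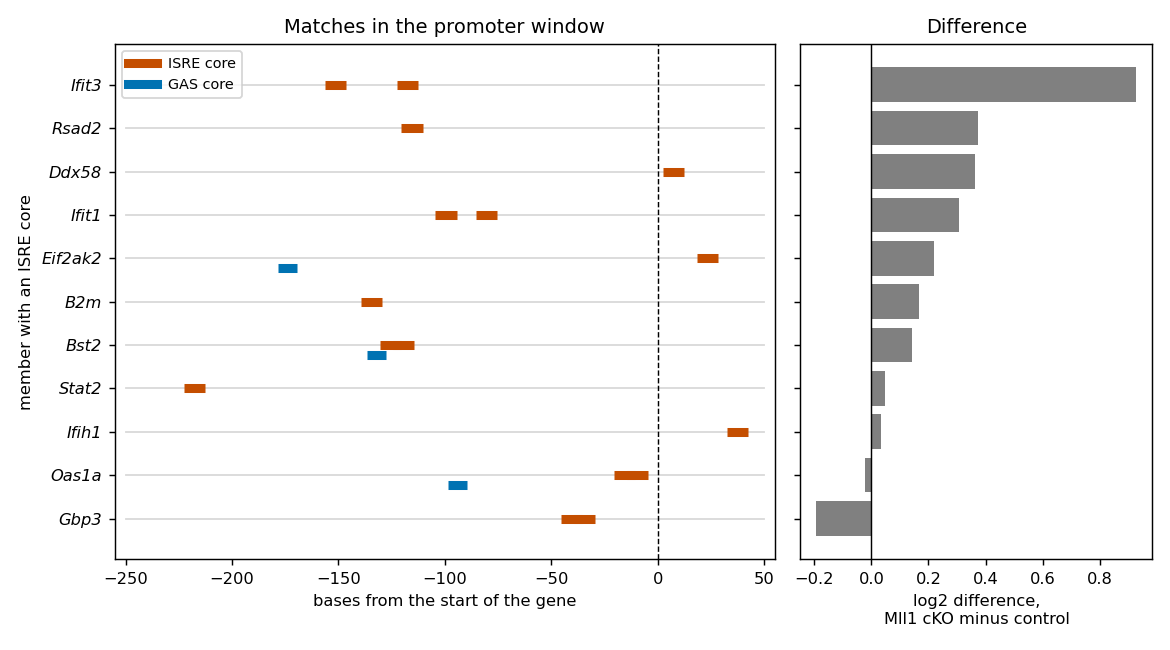
Positions of ISRE and GAS cores in the promoter window of the 11 measured members with an ISRE core, in bases from the start of the gene (left), and their log2 difference, Mll1 cKO minus control, 1 array per condition (right). Cores lie on both sides of the start, and the bars run from 0.93 for Ifit3 to -0.19 for Gbp3.

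The 4 receptor chains had a median log2 difference of 0.26, and 3 of them were higher. All 4 have mean signals above 9, where 55.5% of all genes were higher. Ifngr2, the signalling chain of the interferon gamma receptor, had log2 signals of 9.72 (control) and 10.33 (Mll1 cKO) and was 1.53-fold higher. Among all named genes, 4.40% had a higher difference. Ifnar2, the chain of the type I receptor that binds interferon with high affinity, had signals of 8.90 and 9.31 and was 1.33-fold higher. Its partner Ifnar1 differed little, with 9.05 and 9.18. Ifngr1, the ligand-binding chain of the interferon gamma receptor, was the lower one, with 9.08 and 8.95. Ifnar2, Ifnar1 and Ifngr2 lie close together on chromosome 16, with 1 protein-coding gene between the first pair and none between the second.

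The 5 STAT and IRF factors (3 higher, 2 lower) had a median log2 difference of 0.049. Irf9, the DNA-binding partner of STAT proteins in the complex that binds the ISRE, had log2 signals of 6.45 (control) and 7.00 (Mll1 cKO) and was 1.46-fold higher. Stat2, the STAT protein of that complex, had signals of 6.20 and 6.25. This difference of 0.049 turned to -0.020 after quantile normalization. Irf1, a factor induced by interferon gamma, has 2 probe sets, with signals of 6.32 and 6.57 for one and of 5.40 and 5.49 for the other. Irf3, which is activated by phosphorylation downstream of the nucleic acid sensors, had 7.83 and 7.78. Irf7, the inducible factor that amplifies the production of type I interferon, had 5.11 and 5.06, a sign that turned with the trend on signal removed and after quantile normalization. Apart from Irf9, the factors thus differed by 1.12-fold or less, with the probe sets of Irf1 averaged, and by up to 1.19-fold on the brighter one of Irf1.

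The RIG-I-like receptors are helicases that detect viral RNA in the cytoplasm. Ddx58, which encodes RIG-I, a sensor of RNA with a triphosphate end, had log2 signals of 5.99 (control) and 6.35 (Mll1 cKO) and was 1.29-fold higher. Ifih1, which encodes MDA5, a sensor of long double-stranded RNA, had signals of 4.87 and 4.90. Dhx58, which encodes LGP2, a regulator of both, had 4.67 and 4.60, and its difference was positive in place of negative with the trend on signal removed and after quantile normalization. In the deposited values the median of these 3 sensors was 0.034, close to the 0.049 of the factors and the 0.033 of the 26 measured effectors. They were farther apart under other scalings. With the trend on signal removed the medians were 0.24, 0.145 and 0.064, and after quantile normalization 0.21, 0.11 and 0.0075, in the same order. Of the effectors, 13 were higher, 12 were lower and 1 was equal.

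**Figure D4:**
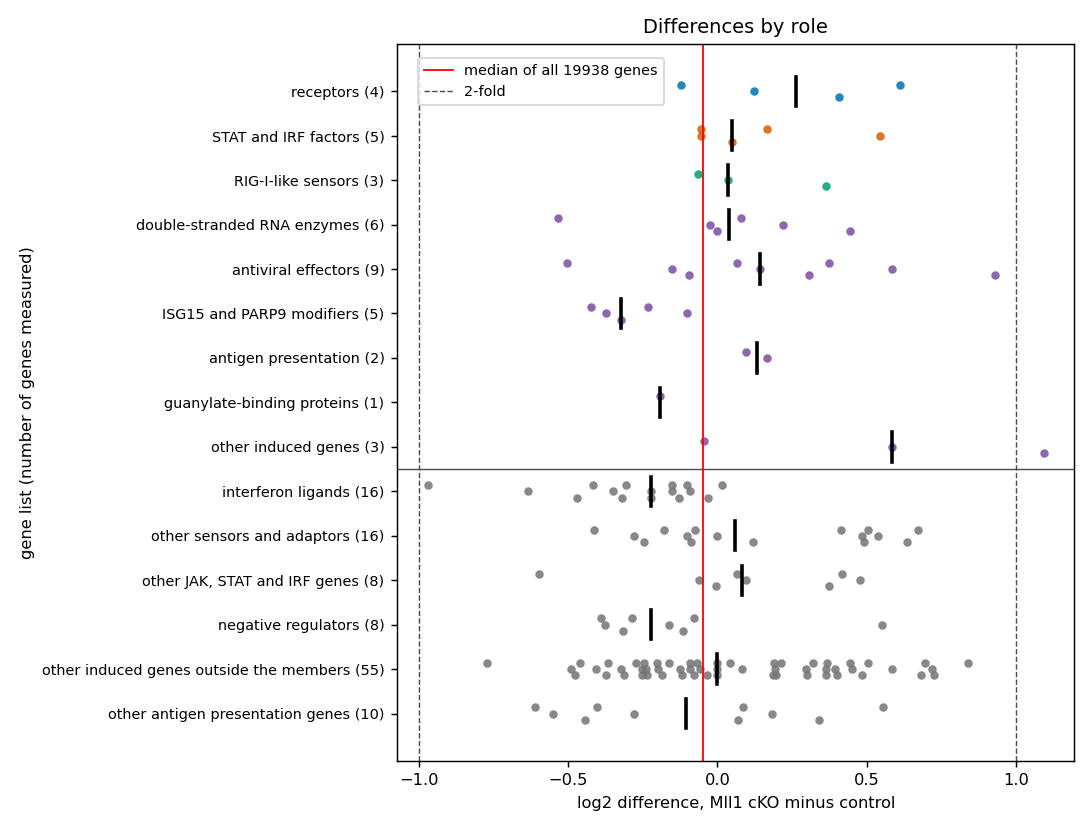
Log2 difference (Mll1 cKO minus control) of each gene, by role, for the 38 members (above the horizontal line) and for 113 other genes of the interferon pathway (below it, grey), with the number of genes in brackets. Black bars are list medians, the red line is the median of all genes at -0.049, and dashed lines mark 2-fold. The ISG15 and PARP9 modifiers and all but 1 of the interferon ligands lie to the left of 0.

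The enzymes that act on double-stranded RNA differed in both directions. Oasl2, an oligoadenylate synthetase-like protein, had log2 signals of 5.55 (control) and 5.99 (Mll1 cKO) and was 1.36-fold higher. Eif2ak2, which encodes the kinase PKR that halts translation on binding such RNA, had 6.12 and 6.34. At the other end, Oas2, an oligoadenylate synthetase whose product activates RNase L, had 5.30 and 4.77 and was 1.45-fold lower. It had the lowest difference of all members, at -0.53, and 3.24% of all named genes had a lower one. The editing enzyme Adar had 7.30 and 7.38. Oas1a, another oligoadenylate synthetase, had 4.41 and 4.39 on the probe set that carries its symbol alone, and the signs of Adar and Oas1a both turned with the trend on signal removed and after quantile normalization, that of Oas1a also under centring. A second probe set, shared with its paralog Oas1g, had 4.10 and 4.17. Oasl1 had the same signal of 6.89 in both arrays, as had 608 of the 21789 probe sets with 1 symbol.

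The 9 antiviral effectors, 6 of them higher and 3 lower, had a median log2 difference of 0.14. That is 66.7% higher, against 41.6% of all genes. Ifit3, one of the IFIT proteins, which bind viral RNA, had log2 signals of 4.16 (control) and 5.09 (Mll1 cKO) and was 1.90-fold higher. Only 1.46% of all named genes had a higher difference, although its signal is low in both arrays. Its near-identical paralog Ifit3b, which is no member, had 3.19 and 3.23, and how far the probes tell the pair apart was not tested. Ifit1, another protein of the family, which binds RNA that lacks methylation of its cap, was 1.24-fold higher, with 5.86 and 6.16. Ifit2, next to Ifit3 on chromosome 19, had the opposite sign, with 5.79 and 5.64, so that these IFIT genes did not all share 1 sign. Of all named genes, 35.2% had a lower difference than its -0.15, which came to -0.039 with the trend on signal removed.

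Isg20, an exonuclease that degrades viral RNA, had log2 signals of 7.24 (control) and 7.82 (Mll1 cKO) a difference of 0.58, just short of a 1.5-fold cut-off. Rsad2, which encodes viperin, an enzyme that makes a chain-terminating nucleotide, had 5.90 and 6.27 and was 1.30-fold higher. Cmpk2, a mitochondrial nucleotide kinase whose gene lies next to Rsad2, had 4.77 and 4.84. Bst2, described above, had 6.64 and 6.78. The Mx genes encode dynamin-like GTPases that block virus entry or replication. Mx2 was 1.42-fold lower, with 3.70 and 3.20, and Mx1 had 3.26 and 3.17, a difference that came to 0.0017 after quantile normalization. Only 4.13% of all named genes had a lower difference than Mx2. Both Mx genes have mean signals below 5, where 21.5% of all genes were higher.

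The measured genes around the modifiers ISG15 and PARP9 were all lower in the Mll1 cKO array, 5 of 5, against 55.6% of all genes. The 5 had a median log2 difference of -0.32 and kept this sign under each of the 3 other scalings. With the trend on signal removed, their differences ran from -0.21 for Usp18 to only -0.027 for Dtx3l. Usp18, the protease that removes ISG15 and also dampens signalling at IFNAR2, had log2 signals of 4.86 (control) and 4.43 (Mll1 cKO) and was 1.34-fold lower. Parp14, an ADP-ribosyltransferase, had 4.52 and 4.14, and Parp9, of the same family, had 4.70 and 4.37. Dtx3l, the ubiquitin ligase that pairs with PARP9, had 5.05 and 4.81. These 3 genes are direct neighbours on chromosome 16 and were between 1.18-fold and 1.30-fold lower. Their mean signals lie below 5, as does that of Usp18, in the range where only 21.5% of all genes were higher. Trim25, the ubiquitin ligase that acts on RIG-I, lies above that range and differed least, with 8.02 and 7.92. The probe set shared by Isg15 and Gm9706 had 4.40 and 4.27.

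The 2 genes of antigen presentation were both slightly higher. B2m, the light chain of class I molecules, had log2 signals of 11.31 (control) and 11.48 (Mll1 cKO) and was 1.12-fold higher. Tap1, a subunit of the peptide transporter, had 7.01 and 7.11, and its difference was -0.040 after quantile normalization. Gbp3, a guanylate-binding GTPase that attacks intracellular pathogens, had 4.49 and 4.30, a difference that turned to 0.0076 with the trend on signal removed. The probe set shared by Gbp2 and Gbp2b had 4.13 and 4.26.

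Among the other induced genes, Lgals3bp had log2 signals of 7.29 (control) and 8.39 (Mll1 cKO). It was 2.13-fold higher, and 0.833% of all named genes had a higher difference. After quantile normalization of the deposited values its difference was 0.98 and no longer passed 2-fold, whereas that of Ifit3 was 1.08 and passed. Ifi35, which forms a complex with the protein NMI, had 6.47 and 7.05, a difference of 0.58 and again just short of 1.5-fold. Xaf1, an antagonist of the caspase inhibitor XIAP, had 4.44 and 4.40, a sign that turned under each of the 3 other scalings. At a cut-off of 1.5-fold, 3 members were higher, namely Lgals3bp, Ifit3 and Ifngr2, and none was lower, against 5.09% and 2.17% of all genes.

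Among other genes of the interferon pathway, 113 were measured, and none was over 2-fold higher or lower, against 1.22% and 0.11% of all genes. In all, 45 were higher, 64 were lower and 4 were equal. That is 39.8% higher and 56.6% lower, close to the 41.6% and 55.6% of all genes. The median log2 difference of the 113 was -0.078, which became 0.036 with the trend on signal removed and 0.0087 after quantile normalization. Of 16 interferon genes, 15 were lower and 1 was higher, with a median of -0.22. Ifna16, a type I interferon, had the largest difference of these, with log2 signals of 5.58 and 4.61. The median signals of the 16 were 4.69 and 4.49, in the range below 5 where 21.5% of all genes were higher. However, Ifna2, Ifna5, Ifna14, Ifna16, Ifnz and Ifnl2 had mean signals from 5.09 to 7.24 and were lower too. Of all genes, 41.9% were higher from 5 to 7 and 60.7% from 7 to 9.

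Of 16 other sensors and adaptors, 8 were higher and 7 were lower, with Tlr4, the receptor for bacterial lipopolysaccharide, farthest from 0, at signals of 6.87 and 7.55. Of 8 JAK, STAT and IRF genes outside the members, 5 were higher and 3 were lower, and Irf8, a factor of myeloid cells, had 5.65 and 5.05. Among 8 genes listed as negative regulators, 7 were lower, against 55.6% of all genes. The 7 include Isg20l2, with 9.03 and 8.87, whose role as a negative regulator was not checked. The largest difference of a gene's mean was that of the higher one, Pias1, an inhibitor of STAT activity, with 9.39 and 9.94. One of the 2 probe sets of Socs3, an inhibitor of Janus kinases, differed more, with 5.63 and 5.01, and the other had 6.53 and 6.51. Of 55 further induced genes, 25 were higher and 27 were lower. Ifitm3, which blocks the fusion of virus and endosome membranes, had the largest difference there when probe sets were averaged, with 11.12 and 11.95, and was 1.79-fold higher. Of 10 other genes of antigen presentation, 5 were higher and 5 were lower. Tap2, the partner of TAP1 in the peptide transporter, had 6.99 and 6.38, the opposite direction to Tap1. It had the largest difference of this list when probe sets were averaged. Single probe sets of Nlrc5, which has 19, ran from -0.98 to 0.29 around a mean difference of -0.28.

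Leukocytes express many of these genes, so 15 of their markers were read beside them, although the methods describe depletion of cells bearing CD45 or CD11b at isolation. Their mean log2 signal was 4.75 and 4.76, with 3 higher and 12 lower and a median difference of -0.23. That is 20.0% higher, against 41.6% of all genes and 21.5% of those with a mean signal below 5. The defining genes Ptprc, at 3.83 and 3.69, Csf1r, at 4.52 and 4.28, and Adgre1, at 3.48 and 3.24, were among the lower ones. Cd68, a lysosomal protein of macrophages, was over 2-fold higher, from 6.08 to 7.47, as was Cd53, a tetraspanin of leukocytes, from 6.51 to 7.52. These were the 2 of the 15 past 2-fold, against 1.22% of all genes. Laptm5, a lysosomal protein of leukocytes, had 5.91 and 6.46. Markers of endothelial cells ranged from 3.64 to 5.08 over both arrays, with none higher. Of 8 measured fibroblast markers, 7 were lower, against 55.6% of all genes. Another listed fibroblast marker, Ly6a, had no probe set of its symbol alone, and the paper lists it among its upregulated genes. Of 8 markers of differentiated muscle, 6 were higher, 2 of them over 2-fold, with means of 7.94 and 8.51. Of 4 markers of plasmacytoid dendritic cells, 1 was higher, Bst2. The part of other cells or of differentiation in the differences above was not tested.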

How the data were processed

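RNA of 2 myoblast cultures was hybridised to 1 Affymetrix MoGene 1.0 ST array each. The authors normalized the raw data with RMA in R, a method of background correction, quantile normalization and summary by probe set, and deposited log2 signals of 35557 probe sets. The RMA version was not given in the sources used here. Groups came from the sample labels, and no column was left unused.

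Symbols came from the platform annotation. They named 21789 probe sets by 1 symbol and 1621 by several, and 12147 were not named here. Probe sets with 1 symbol were used, averaged where a gene had several. A gene passed the cut-off if any probe set differed by over 2-fold, the cut-off of the methods. All members were named, and of each list of other pathway genes, the one with the largest difference. Members and lists were chosen with earlier results of these data known. The steps were checked on simulated shifts. Alternatives were cut-offs of 1.5-fold and 3-fold, signals over 7 or 8 in the higher array, centring on the median, removal of a lowess trend (span 0.3), quantile normalization, the brightest probe set, shared probe sets, means for medians and 1 mismatch in the ISRE core. Promoters and gene order came from RefSeq (GRCm38.p6). Python 3.11.15, numpy 2.4.6, pandas 2.3.3, statsmodels 0.14.6 and matplotlib 3.10.9 were used.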

Additional observations from a re-analysis of the deposited data

How the results depend on the processing

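With 1 array per condition a median was taken as moved where it shifted by 0.1 or more on the log2 scale, and no paired analysis was possible because each group has 1 array and the labels give no replicate numbers. Of the 38 members, 18 were higher and 10 were lower under the deposited values and all 3 other scalings, and 10 changed sign or were equal under at least 1. The count of members over the cut-off was 3 higher at 1.5-fold, 0 at 3-fold and 2 with the trend on signal removed, when Ifit3 joined Lgals3bp, and 1 after quantile normalization, when Ifit3 replaced it. For the other pathway genes it was 8 higher and 7 lower at 1.5-fold, which is 7.08% and 6.19% of 113, against 5.09% and 2.17% of all genes. The median of the members was 0.17 with signals over 8. That of the effectors was 0.17 with signals over 7 and over 8, from 7 and 3 genes. That of the STAT and IRF factors was -0.056 with signals over 7, from Irf3 alone, and that of the sensors was 0.24 without the trend and 0.21 after quantile normalization. The median of the other pathway genes was 0.21 with signals over 7, 0.35 with signals over 8, 0.036 without the trend and 0.0087 after quantile normalization. With signals over 7, the interferon genes stood at -0.42 (1 gene), other sensors and adaptors at 0.49, further induced genes at 0.36 and other antigen presentation genes at 0.18. With signals over 8 the last 3 stood at 0.50, 0.36 and 0.21. Without the trend the interferon genes stood at -0.11. A filter on signal leaves fewer genes, and the cause of the other shifts was not tested. With 1 mismatch allowed, 26 members and 38.9% of all genes had an ISRE core.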

Other observations

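Apobec3, an antiviral cytidine deaminase among the further induced genes, has 2 probe sets that went opposite ways, the higher of them by slightly more than Ifitm3, with log2 signals of 6.78 (control) and 7.63 (Mll1 cKO) for one and of 5.78 and 5.31 for the other. It was chosen after its values were seen. Its mean difference of 0.19 therefore describes neither.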
